A study of Homo sapiens with 21 samples.

Results

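The constitutive proteasome genes are the subunits and dedicated assembly factors of the proteasome that cells make without an inflammatory stimulus. They were taken from an RNA-seq table of the lung cancer line H1975 as every row whose symbol begins with PSM, continues with a letter from A to G and ends in a number, less the inducible genes PSMB8, PSMB9, PSMB10, PSME1 and PSME2. This gave 42 of the 34021 genes in the table: 15 of the 20S core particle (PSMA and PSMB), 20 of the regulatory particle and its chaperones (PSMC and PSMD), and 7 others (PSME, PSMF and PSMG). In H1975, a human lung adenocarcinoma line with a mutated epidermal growth factor receptor (EGFR), 9 libraries were analysed in 3 groups of 3, all from cells cultured for 8 days. Osi_cIGF1R was given osimertinib at 500 nM, a drug that binds mutant EGFR covalently, and overexpressed cIGF1R, a circular RNA of IGF1R. Osi_Lin_EV was given EV, 500 nM osimertinib and 500 nM linsitinib, which inhibits the kinases of IGF1R (a receptor of insulin-like growth factors) and of the insulin receptor. DMSO_EV was given EV and the vehicle, DMSO. The labels do not spell out EV. The other 12 of the 21 samples in the series, libraries of circular RNA, were not used here. Cells given osimertinib with EV but without linsitinib are not among the libraries used here, so drug and circular RNA cannot be told apart in Osi_cIGF1R against DMSO_EV, and linsitinib and the circular RNA cannot be told apart in Osi_cIGF1R against Osi_Lin_EV.

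The proteasome degrades proteins that carry chains of ubiquitin. Its 20S core is a barrel in which rings of beta subunits, some of them proteases, lie between outer rings of alpha subunits that gate the entrance. The 19S regulatory particle caps the barrel: non-ATPase subunits bind and remove ubiquitin, and a ring of ATPases unfolds the substrate and threads it into the core. In most cells the genes are transcribed together, and NFE2L1 is known to raise them when proteasome activity is short. Under interferon, PSMB8, PSMB9 and PSMB10 take the place of the catalytic subunits PSMB5, PSMB6 and PSMB7.

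All values are levels in FPKM, fragments scaled to gene length and library size, a unit inferred from the values because the table names none. Read depth is unknown. Total FPKM was 338034 to 381311 in Osi_cIGF1R, 423319 to 432563 in Osi_Lin_EV and 429553 to 474156 in DMSO_EV, and the share of mitochondrial genes was 6.08% to 7.28%, 20.4% to 25.6% and 20.3% to 30.4% in the same order. The part of the mitochondrial share in the results below was not tested beyond rescaling the libraries. DMSO_EV replicate 2 stood apart on 4 RNAs made by RNA polymerase III, with a summed level of 843.2 FPKM against 52.4 and 76.2 in the other DMSO_EV libraries, and Osi_cIGF1R replicate 1 held 72.4 FPKM of them against 4.07 and 8.64 in its group. Epithelial markers fitted the label, with all 6 abundant and a summed level of 12440 to 15200 FPKM in Osi_cIGF1R, 13230 to 14400 in Osi_Lin_EV and 11200 to 12460 in DMSO_EV. The alveolar markers NKX2-1, SFTPB and SFTPC were under 0.2 FPKM in every library. Of the leukocyte, fibroblast and endothelial markers, CD14, COL1A1 and CDH5 alone reached 1 FPKM in any library. PTPRC, the general marker of leukocytes, stayed at or under 0.0352 FPKM. Whether libraries of 1 group derive from separate cultures is not stated in the labels, and p-values therefore reflect only how these libraries vary, possibly for technical reasons. In bulk RNA, fewer cells of a type and less RNA per cell cannot be told apart.

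Promoter sequence is shown for 4 genes that stand at the extremes of Osi_cIGF1R against DMSO_EV: PSMA6 and PSMA2 were the 20S genes that rose, and PSMD14 and PSMC3 had the largest falls of the 19S. Each line gives the 250 bases before a gene's start, 5′ to 3′ on the gene's strand, from the promoter table of RefSeq (GRCh38.p14), in which 36 of the 42 genes had an entry. Capitals mark matches, on either strand, to CCAAT (the box bound by NF-Y), TGACNNNGC (the core of the antioxidant response element, which NFE2L1 and NFE2L2 bind) or TTCCGG (a core of ETS factor sites).
PSMA6, chr14:35292067-35292316, plus strand, the first of 2 starts listed: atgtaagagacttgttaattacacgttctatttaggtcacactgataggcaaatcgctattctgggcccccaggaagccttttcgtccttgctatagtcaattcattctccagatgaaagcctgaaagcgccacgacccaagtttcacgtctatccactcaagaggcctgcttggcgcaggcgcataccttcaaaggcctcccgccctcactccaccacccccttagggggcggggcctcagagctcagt
PSMA2, chr7:42932175-42932424, minus strand: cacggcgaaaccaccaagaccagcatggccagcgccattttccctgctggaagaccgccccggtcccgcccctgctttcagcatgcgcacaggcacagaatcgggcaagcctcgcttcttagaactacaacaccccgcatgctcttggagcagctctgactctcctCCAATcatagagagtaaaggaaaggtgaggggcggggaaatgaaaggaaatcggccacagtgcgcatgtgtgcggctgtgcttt
PSMD14, chr2:161308175-161308424, plus strand: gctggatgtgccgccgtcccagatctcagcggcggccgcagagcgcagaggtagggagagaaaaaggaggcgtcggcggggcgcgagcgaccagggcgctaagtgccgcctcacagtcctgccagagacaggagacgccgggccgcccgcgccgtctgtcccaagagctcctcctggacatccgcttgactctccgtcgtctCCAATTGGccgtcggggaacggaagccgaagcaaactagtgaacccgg
PSMC3, chr11:47426440-47426689, minus strand: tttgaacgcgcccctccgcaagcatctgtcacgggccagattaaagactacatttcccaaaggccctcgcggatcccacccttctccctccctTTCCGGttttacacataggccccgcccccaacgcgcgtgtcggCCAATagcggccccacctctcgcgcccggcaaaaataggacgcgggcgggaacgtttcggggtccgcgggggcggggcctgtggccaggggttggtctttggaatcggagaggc
Both listed starts of PSMA6 lie inside the span RefSeq gives the gene (chr14:35278558-35317493), whereas the other 3 windows end at the start of their gene's span. The window of PSMA6 held none of the 3 motifs, that of PSMA2 held CCAAT, that of PSMD14 held CCAAT on both strands in overlapping copies, and that of PSMC3 held CCAAT and TTCCGG. Among the 36 genes, 18 (50.0%) held CCAAT, against 37.0% of the 27305 genes in the table, and 17 (47.2%) held TTCCGG, against 17.2%. TGACNNNGC was held by 10 of the 36 (27.8%), against 13.2% of all genes. A gene counted as holding a motif if any of its listed starts did. Of the 26 genes with an entry that fell in Osi_cIGF1R against DMSO_EV, 13 held CCAAT, 14 held TTCCGG and 6 held TGACNNNGC. Of the 4 that rose, 1 held CCAAT, 1 held TTCCGG and 1 held TGACNNNGC. No entry was found for PSMA7, PSMB1, PSMB6, PSMB7, PSMD4 and PSMG3. A match is a run of letters and does not show a binding site.

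Most constitutive proteasome genes stood lower in both drug-treated groups than in DMSO_EV. Their summed level was 1524, 1513 and 1919 FPKM in Osi_cIGF1R, 1936, 1919 and 1728 FPKM in Osi_Lin_EV, and 2426, 2676 and 2626 FPKM in DMSO_EV. Every library of either drug-treated group lay under every DMSO_EV library, while Osi_cIGF1R and Osi_Lin_EV overlapped. Osi_cIGF1R replicate 3 was the highest of its group in 36 of the 41 genes tested, and Osi_Lin_EV replicate 3 the lowest of its group in 33. Calls are from limma on log2(FPKM + 1), in 1 fit over 9 libraries and 13775 genes, with a Benjamini-Hochberg adjusted p under 0.05.

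In Osi_cIGF1R against DMSO_EV, 32 of the 41 genes fell and 4 rose (PSMA2, PSMA6, PSMD5 and PSMF1), where 69.0% of all genes tested were called, 35.8% as lower and 33.1% as higher. Their median log2 fold change was -0.75, against -0.03 over all genes. In Osi_Lin_EV against DMSO_EV, 32 fell and 0 rose, where 52.6% of all genes were called, 23.5% as lower and 29.0% as higher, and the median was -0.50 against 0.05. These counts share the DMSO_EV libraries. In Osi_cIGF1R against Osi_Lin_EV, 18 fell and 7 rose, where 60.7% of all genes were called, 34.8% as lower and 25.9% as higher, and the median was -0.19 against -0.09 over all genes, so the shares lay closer to the background than in the other comparisons.

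**Figure D1:**
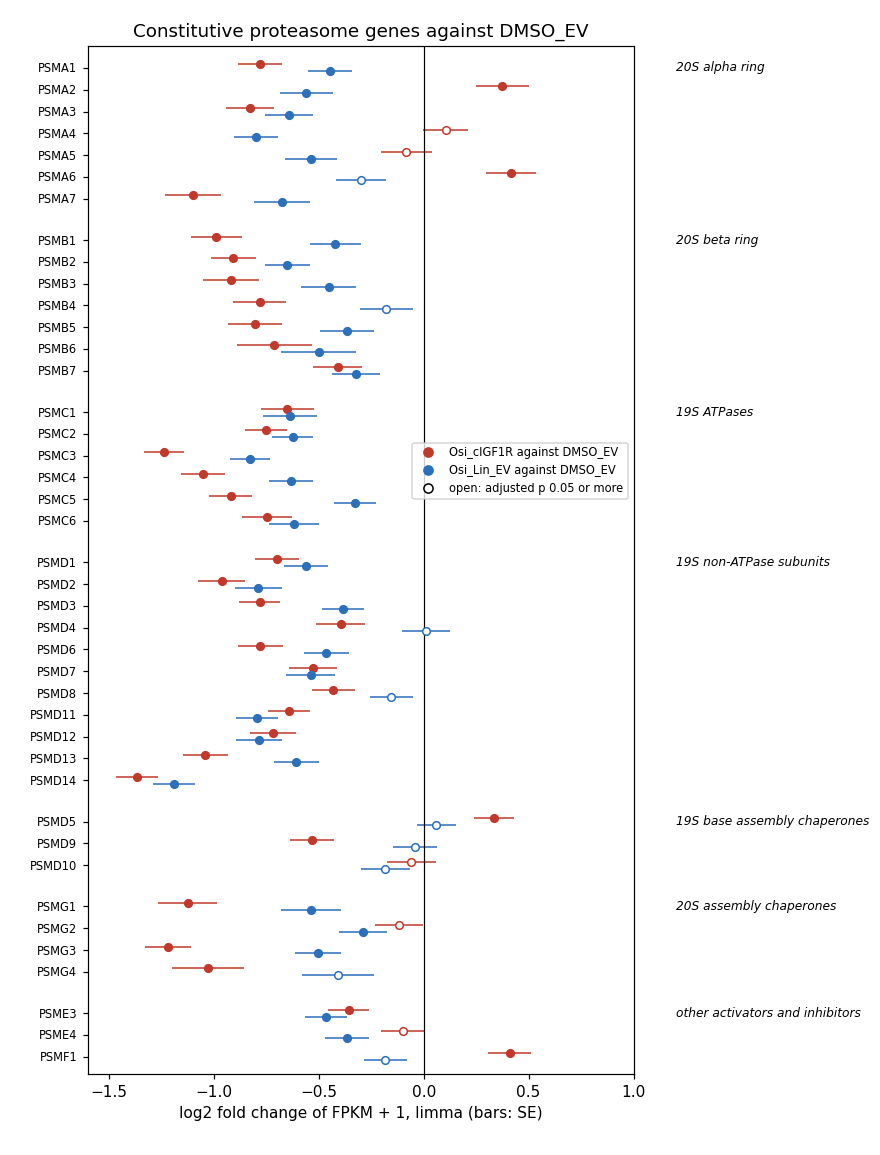
Log2 fold change of each gene tested against DMSO_EV, in log2(FPKM + 1) on the horizontal axis, for Osi_cIGF1R (red) and Osi_Lin_EV (blue), with genes grouped by structural class down the page and bars for the SE. Filled points passed the limma threshold: 32 genes fell in each drug-treated group, and PSMA2, PSMA6, PSMD5 and PSMF1 lie to the right of 0 in Osi_cIGF1R.

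The falls against DMSO_EV kept their direction under every rescaling, and the median against Osi_Lin_EV did not. Rescaling to equal totals moved the median of all genes to 0.25 in Osi_cIGF1R against DMSO_EV, and there the proteasome genes lay 0.68 under all genes on the log2 scale, against 0.72 as deposited. It left 25 falls and 5 rises, with PSMA4 added to the rises (log2 fold change 0.43, limma adjusted p = 0.00131) and with the calls of PSMB6, PSMB7, PSMD4, PSMD7, PSMD8, PSMD9 and PSME3 ended (adjusted p = 0.0573 to 0.812). It left 29 falls in Osi_Lin_EV against DMSO_EV and ended the calls there of PSMB5, PSME4 and PSMG2 (adjusted p = 0.0562 to 0.0814), while median-of-ratios rescaling added PSMA6, PSMF1 and PSMG4 to the falls. In Osi_cIGF1R against Osi_Lin_EV the same rescaling turned the median of the proteasome genes to 0.08, against 0.14 over all genes, and left 6 falls and 12 rises, while median-of-ratios rescaling left 11 falls and 10 rises. The falls that lost their call there under both were those of PSMA1, PSMA7, PSMB3, PSMB5, PSMD4, PSMD6 and PSMD8, and equal totals also ended those of PSMC3, PSMC4, PSMD3, PSMD9 and PSMD13. Both settings added PSMD11, PSME3 and PSMG2 to the rises, and equal totals also added PSMD10 and PSMD12. At equal totals 67.0% of all calls in Osi_cIGF1R against DMSO_EV were rises, against 48.0% as deposited. In Osi_cIGF1R against Osi_Lin_EV the share was 65.3% at equal totals and 54.9% under median-of-ratios, against 42.7% as deposited. With mitochondrial genes left out of the equal totals, 32 fell and 4 rose in Osi_cIGF1R against DMSO_EV, 33 fell and 0 rose in Osi_Lin_EV against DMSO_EV, and 19 fell and 6 rose in Osi_cIGF1R against Osi_Lin_EV.

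Split by particle, 10 of 14 tested 20S genes and 18 of 20 regulatory genes fell in Osi_cIGF1R against DMSO_EV, with median log2 fold changes of -0.78 and -0.73. At equal totals 8 and 14 of them fell, with medians of -0.45 and -0.42, where 3214 of all 13781 genes tested fell. The medians of the beta ring, the ATPases and the non-ATPase subunits given below were then -0.47, -0.51 and -0.425. In Osi_Lin_EV against DMSO_EV the counts were 12 of 14 and 15 of 20, with medians of -0.48 and -0.58. In Osi_cIGF1R against Osi_Lin_EV, 6 of the 14 20S genes fell and 4 rose, and 9 of the 20 regulatory genes fell and 1 rose. The medians there were -0.23 and -0.18 and turned to 0.04 and 0.09 at equal totals. As deposited, 35.8%, 23.5% and 34.8% of all genes tested fell and 33.1%, 29.0% and 25.9% rose in these comparisons, in the order given. The 20S counts in the last lay near those shares, which are also the background for the counts per class below. Within the 20S the rings differed in count: against DMSO_EV, Osi_cIGF1R had all 7 tested beta genes lower, and 3 alpha genes lower, 2 higher and 2 not called.

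**Figure D2:**
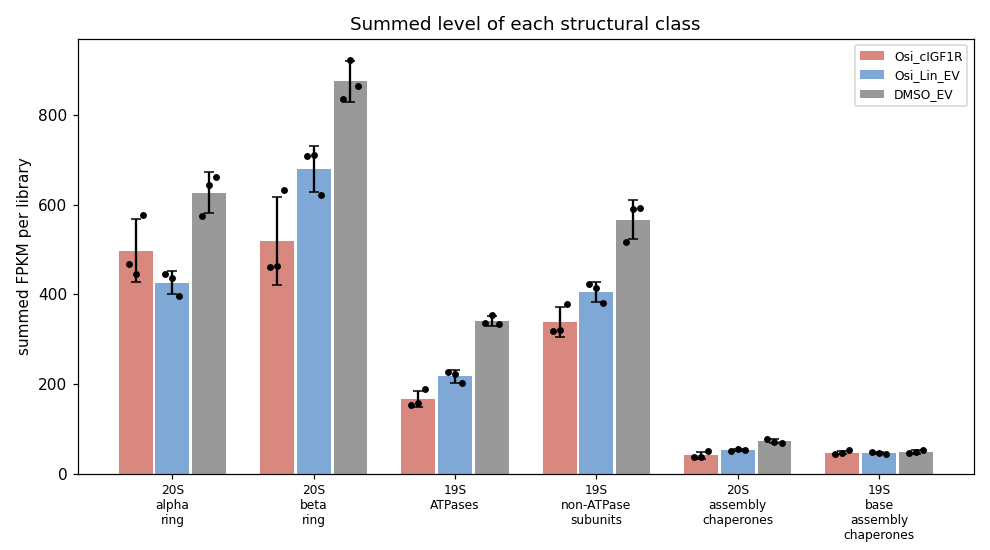
Summed FPKM per library (vertical axis, from 0) for 6 structural classes, with bars for group means, lines for the SD of 3 libraries and points for libraries. The mean alpha ring sum is higher in Osi_cIGF1R (497.4) than in Osi_Lin_EV (426.0). The mean beta ring sum is lower (519.3 and 680.5), with overlapping libraries. As deposited, DMSO_EV is the highest group mean in all 6, but base assembly chaperones hardly differ (46.9, 45.4 and 48.8 in Osi_cIGF1R, Osi_Lin_EV and DMSO_EV) and their libraries overlap.

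The alpha ring forms the gate of the 20S core and is the platform on which the core is assembled. Its 7 genes separated into those that rose or were not called in Osi_cIGF1R (PSMA2, PSMA4, PSMA5 and PSMA6) and those that fell (PSMA1, PSMA3 and PSMA7). PSMA2 stood at 53.2, 52.2 and 71.9 FPKM in Osi_cIGF1R, 32.2, 30.7 and 27.6 FPKM in Osi_Lin_EV, and 40.3, 45.7 and 49.0 FPKM in DMSO_EV. The 3 groups did not overlap, with Osi_cIGF1R highest and Osi_Lin_EV lowest. Its log2 fold change was 0.37 ± 0.13 (SE) in Osi_cIGF1R against DMSO_EV (limma adjusted p = 0.0179), -0.56 ± 0.13 in Osi_Lin_EV against DMSO_EV (adjusted p = 0.00224) and 0.93 ± 0.13 in Osi_cIGF1R against Osi_Lin_EV (adjusted p = 3.4e-05). The rise against DMSO_EV rested on single libraries: without Osi_cIGF1R replicate 3 it was 0.23 (adjusted p = 0.0599), without DMSO_EV replicate 1 it was 0.30 (adjusted p = 0.0674), and with no filter on low genes its adjusted p was 0.0712.

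PSMA6 had the highest level of all 42 genes in Osi_cIGF1R, at 181.5, 152.6 and 196.9 FPKM, against 113.7, 110.7 and 96.5 FPKM in Osi_Lin_EV and 118.0, 134.5 and 143.7 FPKM in DMSO_EV. Every Osi_cIGF1R library lay over every other library. PSMA6 rose by 0.42 ± 0.12 (SE) on the log2 scale against DMSO_EV (limma adjusted p = 0.00725) and by 0.72 ± 0.12 against Osi_Lin_EV (adjusted p = 0.000196). In Osi_Lin_EV against DMSO_EV its log2 fold change of -0.30 sat at the threshold (adjusted p = 0.05003). It passed without DMSO_EV replicate 1 (adjusted p = 0.0245), without Osi_cIGF1R replicate 2 (adjusted p = 0.0396) and without Osi_cIGF1R replicate 3 (adjusted p = 0.0239), and under median-of-ratios, equal totals without mitochondrial genes, a minimum of 5 FPKM, a fit without a trend or a fit of the compared groups only. It did not pass at equal totals (-0.24, limma adjusted p = 0.117), under quantile normalization, with no filter on low genes, with other pseudocounts or with a replicate block. Nor did it pass without any other single library. PSMA6 shares its span with the readthrough gene PRORP-PSMA6, and how the authors' counting divided their reads is not given in the sources used here.

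PSMA4 stood at 28.9, 32.0 and 38.0 FPKM in Osi_cIGF1R, 17.6, 17.1 and 16.4 FPKM in Osi_Lin_EV, and 32.8, 27.7 and 30.9 FPKM in DMSO_EV. Osi_cIGF1R and DMSO_EV overlapped, and every Osi_Lin_EV library lay under both. It had the largest fall of the alpha ring in Osi_Lin_EV against DMSO_EV (log2 fold change -0.80 ± 0.11 SE, limma adjusted p = 3.54e-05) and stood 0.91 ± 0.11 higher in Osi_cIGF1R than in Osi_Lin_EV (adjusted p = 1.0e-05). PSMA5 was likewise lowest in Osi_Lin_EV, with means of 24.4 ± 3.77, 17.4 ± 1.69 and 25.8 ± 3.10 FPKM in Osi_cIGF1R, Osi_Lin_EV and DMSO_EV (SD, n = 3 each). Against DMSO_EV, the Osi_cIGF1R values of PSMA4 and PSMA5 did not pass the test (log2 fold changes 0.11 and -0.08, limma adjusted p = 0.394 and 0.565).

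PSMA7 had the largest fall of the alpha ring in Osi_cIGF1R, at 82.5, 83.6 and 109.9 FPKM, against 131.7, 123.5 and 112.9 FPKM in Osi_Lin_EV and 167.3, 218.2 and 207.2 FPKM in DMSO_EV. The groups did not overlap. PSMA7 fell by 1.10 ± 0.13 (SE) on the log2 scale in Osi_cIGF1R against DMSO_EV (limma adjusted p = 7.24e-06), by 0.68 in Osi_Lin_EV against DMSO_EV and by 0.42 in Osi_cIGF1R against Osi_Lin_EV. PSMA1 had 37.2, 35.4 and 44.1 FPKM in Osi_cIGF1R, 50.9, 50.4 and 46.1 FPKM in Osi_Lin_EV, and 64.5, 63.6 and 74.0 FPKM in DMSO_EV. Its groups kept the same order without overlap, with log2 fold changes of -0.78, -0.45 and -0.34. Against Osi_Lin_EV, the calls of both genes ended when 1 library was left out: for PSMA7 without Osi_Lin_EV replicate 1, Osi_cIGF1R replicate 1 or Osi_cIGF1R replicate 2 (limma adjusted p = 0.0608, 0.0625 and 0.0612), and for PSMA1 without Osi_Lin_EV replicate 1 or 2 or Osi_cIGF1R replicate 1 or 2 (adjusted p = 0.0524, 0.0521, 0.0501 and 0.0702). PSMA3 fell by 0.83 in Osi_cIGF1R and by 0.64 in Osi_Lin_EV against DMSO_EV. Its antisense gene PSMA3-AS1 overlaps it and held 6.74 to 7.53 FPKM in Osi_cIGF1R, 11.3 to 14.2 in Osi_Lin_EV and 7.69 to 12.6 in DMSO_EV, beside 63.4 to 88.1, 80.9 to 85.3 and 127.3 to 130.9 FPKM of PSMA3 in the same order. The use of strand in counting is not given in the sources used here.

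**Figure D3:**
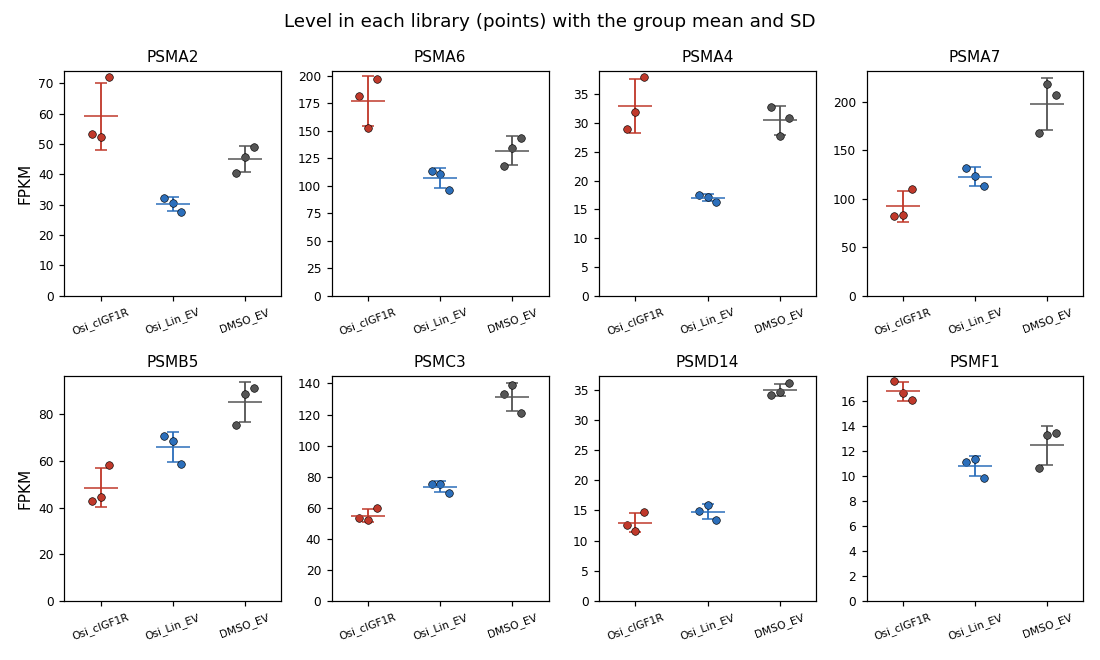
FPKM in each library (points) for 8 genes, with horizontal bars for group means and vertical lines for the SD of 3 libraries, and the groups Osi_cIGF1R, Osi_Lin_EV and DMSO_EV from left to right in each panel. PSMA2, PSMA6 and PSMF1 are highest in Osi_cIGF1R, PSMA4 is lowest in Osi_Lin_EV, and PSMA7, PSMB5, PSMC3 and PSMD14 are highest in DMSO_EV.

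To compare genes within a library, each level was divided by the median of the 31 core subunits (20S and 19S, without PSMB11 and the chaperones) in that library, a ratio that no common factor per library can change. That median was 31.0, 32.0 and 38.0 FPKM in Osi_cIGF1R, 44.8, 44.0 and 40.1 FPKM in Osi_Lin_EV, and 62.6, 65.2 and 62.9 FPKM in DMSO_EV. On the log2 scale, PSMA6 stood 2.39 ± 0.15 over the median in Osi_cIGF1R, 1.31 ± 0.04 in Osi_Lin_EV and 1.05 ± 0.14 in DMSO_EV (SD, n = 3 each). PSMA2 stood at 0.80 ± 0.11, -0.51 ± 0.03 and -0.50 ± 0.14 in the same order, PSMA4 at -0.03, -1.33 ± 0.04 and -1.07 ± 0.15, and PSMA5 at -0.47 ± 0.06, -1.30 ± 0.06 and -1.31 ± 0.16. PSMA4 was itself the median gene in Osi_cIGF1R replicates 2 and 3, so its relative level is 0 there by construction and its spread in that group is not given. In these 4 genes every Osi_cIGF1R library lay over every other library, by 0.84 to 1.34 in the group means against DMSO_EV. In PSMA1, PSMA3 and PSMA7 the same difference of means was 0.13, 0.09 and -0.18. The 4 genes had been grouped by not falling against DMSO_EV, while the core median was lower in Osi_cIGF1R. Their higher relative level against DMSO_EV follows from that grouping and is no separate result. Outside the alpha ring, the relative levels that differed most in Osi_cIGF1R against DMSO_EV were those of PSMF1 (1.36), PSMD5 (1.29), PSMD10 (0.86), PSME4 (0.81) and PSMG2 (0.80), all of them assembly chaperones or regulators. None of them was called lower against DMSO_EV, so their higher relative level there is no separate result either. The other 20S chaperones went the other way: PSMG1 (-0.52), PSMG3 (-0.36) and PSMG4 (-0.22). In PSMF1, PSMD5, PSMD10, PSME4, PSMG2 and PSME3 (0.55), every Osi_cIGF1R library likewise lay over every other library. The same held for the core subunits PSMB7 (0.51), PSMD8 (0.49), PSMD7 (0.38) and PSMC2 (0.14), so such separation was not particular to the alpha ring. With 3 libraries against 3, an exact two-sided permutation test of a single ratio cannot give a p under 0.1.

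**Figure D4:**
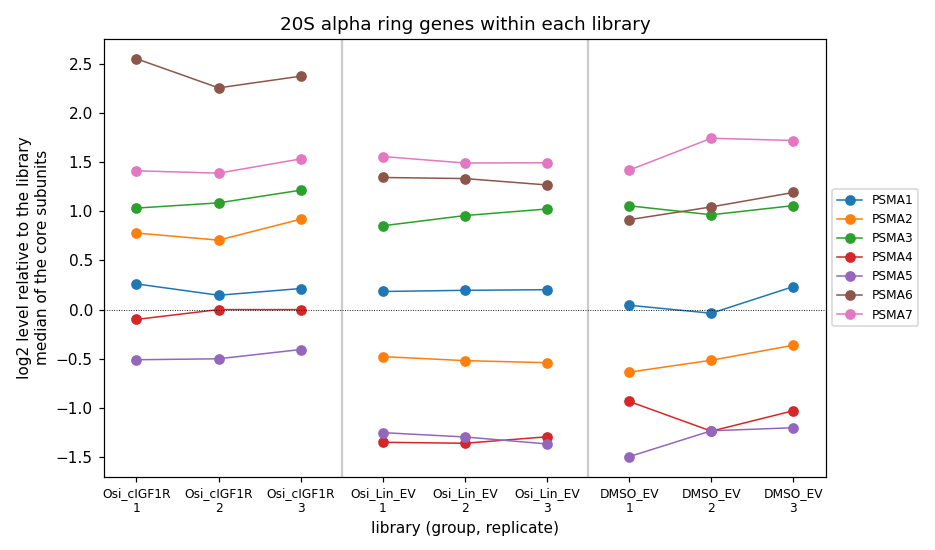
Log2 level of the 7 alpha ring genes relative to the median of 31 core subunits in the same library (vertical axis), for the 9 libraries by group (horizontal axis), with a line joining the libraries of a group. PSMA2, PSMA4, PSMA5 and PSMA6 stand higher in all 3 Osi_cIGF1R libraries than in any other, and PSMA1, PSMA3 and PSMA7 do not.

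The beta ring carries the proteases of the core. All 7 tested beta genes fell in Osi_cIGF1R against DMSO_EV (median log2 fold change -0.81), 6 fell in Osi_Lin_EV against DMSO_EV (median -0.42), and 4 fell in Osi_cIGF1R against Osi_Lin_EV (median -0.44). PSMB5, the chymotrypsin-like protease and the main target of bortezomib, stood at 43.0, 44.8 and 58.2 FPKM in Osi_cIGF1R, 71.0, 68.4 and 58.7 FPKM in Osi_Lin_EV, and 75.6, 88.8 and 91.5 FPKM in DMSO_EV. PSMB6, the caspase-like protease, stood at 61.2, 63.6 and 99.5 FPKM in Osi_cIGF1R, 95.6, 87.1 and 72.4 FPKM in Osi_Lin_EV, and 102.3, 132.0 and 127.9 FPKM in DMSO_EV. PSMB7, the trypsin-like protease, stood at 106.3, 101.0 and 131.5 FPKM in Osi_cIGF1R, 123.3, 127.4 and 108.2 FPKM in Osi_Lin_EV, and 147.6, 159.7 and 141.6 FPKM in DMSO_EV. DMSO_EV was highest without overlap in each, and Osi_cIGF1R and Osi_Lin_EV overlapped in PSMB6 and PSMB7.

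Their log2 fold changes in Osi_cIGF1R against DMSO_EV were -0.81 ± 0.13 (SE) for PSMB5, -0.71 ± 0.18 for PSMB6 and -0.41 ± 0.12 for PSMB7 (limma adjusted p = 7.84e-05, 0.00341 and 0.00640). In Osi_Lin_EV against DMSO_EV they were -0.36, -0.50 and -0.32 (adjusted p = 0.0278, 0.0320 and 0.0319), and each of these calls ended when 1 library was left out. For PSMB5 it ended without DMSO_EV replicate 2 or 3 or Osi_Lin_EV replicate 3 (adjusted p = 0.0895, 0.0974 and 0.119). For PSMB6 it ended without DMSO_EV replicate 2 or 3 or Osi_Lin_EV replicate 2 or 3 (adjusted p = 0.104, 0.0989, 0.05996 and 0.116), and for PSMB7 without DMSO_EV replicate 1 or 2 or Osi_Lin_EV replicate 1 or 3 (adjusted p = 0.0509, 0.117, 0.0593 and 0.134). With no filter on low genes the Osi_Lin_EV calls of these 3 genes and of PSMB3 ended too (adjusted p = 0.0545 to 0.121).

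Among the beta subunits without protease activity, PSMB1 had the largest fall in Osi_cIGF1R, at 69.8, 75.0 and 96.5 FPKM, against 123.2, 123.5 and 109.7 FPKM in Osi_Lin_EV and 148.8, 165.9 and 163.1 FPKM in DMSO_EV. PSMB4, the most abundant beta gene in every group, stood at 109.4, 107.0 and 146.8 FPKM in Osi_cIGF1R, 183.8, 194.4 and 169.8 FPKM in Osi_Lin_EV, and 212.5, 218.5 and 189.8 FPKM in DMSO_EV. PSMB2, the least abundant, stood at 17.5, 17.4 and 20.1 FPKM in Osi_cIGF1R, 21.5, 23.1 and 21.5 FPKM in Osi_Lin_EV, and 29.8, 37.5 and 38.8 FPKM in DMSO_EV. Osi_cIGF1R was lowest without overlap in all 3 genes, and Osi_Lin_EV and DMSO_EV overlapped in PSMB4. PSMB1 fell by 0.99 ± 0.12 (SE) on the log2 scale in Osi_cIGF1R against DMSO_EV (limma adjusted p = 7.35e-06). PSMB2 had the largest fall of the ring in Osi_Lin_EV against DMSO_EV (-0.65 ± 0.11, adjusted p = 0.000221), and PSMB4 the largest in Osi_cIGF1R against Osi_Lin_EV (-0.60 ± 0.13, adjusted p = 0.00112). PSMB3 fell by 0.92 in Osi_cIGF1R and by 0.45 in Osi_Lin_EV against DMSO_EV. PSMB11, a subunit of the thymus, was listed at 0 in 7 libraries and at 0.15 and 0.02 FPKM in Osi_Lin_EV replicates 2 and 3, and did not pass the filter.

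As deposited, the fall of the catalytic genes in Osi_cIGF1R stood beside higher levels of their inducible counterparts. PSMB8 made up 73.8% ± 0.657 of the summed FPKM of PSMB8 and PSMB5 in Osi_cIGF1R, 34.7% ± 1.97 in Osi_Lin_EV and 29.8% ± 2.45 in DMSO_EV (SD, n = 3 each). PSMB9 made up 71.7% ± 2.17, 19.6% ± 3.26 and 10.3% ± 1.21 of its sum with PSMB6 in the same order, and PSMB10 61.0% ± 1.58, 28.0% ± 0.421 and 12.2% ± 0.366 of its sum with PSMB7. The groups did not overlap in any of the 3 shares. All 5 inducible genes rose in Osi_cIGF1R against DMSO_EV, by 3.67 for PSMB9, 3.02 for PSMB10, 1.89 for PSMB8, 0.98 for PSME1 and 0.55 for PSME2 on the log2 scale. PSMB10 rose by 1.12 and PSMB9 by 0.55 in Osi_Lin_EV against DMSO_EV, and PSME2 fell by 0.66. PSMB8 and PSME1 did not pass there (-0.04 and 0.16, limma adjusted p = 0.829 and 0.268). PSMB8 averaged 35.0 FPKM in Osi_Lin_EV and 36.2 in DMSO_EV, and PSMB5 66.0 and 85.3, so the higher PSMB8 share in Osi_Lin_EV came with no rise of PSMB8.

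The 6 ATPases form the ring that unfolds substrates. All 6 fell in both drug-treated groups against DMSO_EV, with a median log2 fold change of -0.84 in Osi_cIGF1R and -0.63 in Osi_Lin_EV, and 3 fell in Osi_cIGF1R against Osi_Lin_EV (PSMC3, PSMC4 and PSMC5). PSMC3, the most abundant of them, whose tail docks into the alpha ring, stood at 53.3, 52.1 and 59.7 FPKM in Osi_cIGF1R, 75.5, 75.5 and 69.3 FPKM in Osi_Lin_EV, and 133.5, 139.0 and 121.2 FPKM in DMSO_EV. PSMC5 stood at 31.0, 31.0 and 37.8 FPKM in Osi_cIGF1R, 53.0, 52.8 and 45.8 FPKM in Osi_Lin_EV, and 62.6, 65.2 and 62.9 FPKM in DMSO_EV. The groups of each gene did not overlap, with Osi_cIGF1R lowest. PSMC3 had the largest fall of the class against DMSO_EV, by 1.24 ± 0.10 (SE) on the log2 scale in Osi_cIGF1R (limma adjusted p = 8.4e-08) and by 0.83 ± 0.10 in Osi_Lin_EV (adjusted p = 9.8e-06). PSMC5 had the largest fall in Osi_cIGF1R against Osi_Lin_EV, by 0.59 ± 0.10 (adjusted p = 0.000241), and its fall of 0.33 in Osi_Lin_EV against DMSO_EV lost its call without DMSO_EV replicate 2 (adjusted p = 0.0529) or Osi_Lin_EV replicate 3 (adjusted p = 0.0795). PSMC4 fell by 1.05 in Osi_cIGF1R and 0.63 in Osi_Lin_EV against DMSO_EV, PSMC2 by 0.75 and 0.62, PSMC6 by 0.75 and 0.62, and PSMC1 by 0.65 and 0.64. PSMC1 was the least abundant, at 6.83 ± 0.981, 6.88 ± 0.669 and 11.3 ± 1.96 FPKM in Osi_cIGF1R, Osi_Lin_EV and DMSO_EV (SD, n = 3 each), and its pseudogene PSMC1P1 reached up to 17.2% of its level in a library, so reads may have been divided between them.

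The 11 non-ATPase subunits of the 19S all fell in Osi_cIGF1R against DMSO_EV (median log2 fold change -0.72), and 9 fell in Osi_Lin_EV against DMSO_EV (median -0.56). PSMD14, the metalloprotease that cuts the ubiquitin chain off the substrate, had the largest fall of all 41 genes tested in both. It stood at 12.6, 11.7 and 14.7 FPKM in Osi_cIGF1R, 15.0, 15.9 and 13.5 FPKM in Osi_Lin_EV, and 34.2, 34.6 and 36.0 FPKM in DMSO_EV. The drug-treated groups overlapped each other and lay far under DMSO_EV. PSMD14 fell by 1.37 ± 0.10 (SE) on the log2 scale in Osi_cIGF1R (limma adjusted p = 4.46e-08) and by 1.19 ± 0.10 in Osi_Lin_EV (adjusted p = 4.47e-07) against DMSO_EV, to ratios of mean FPKM of 0.371 and 0.423. Its partner PSMD7 fell by 0.53 and 0.54 in the same comparisons.

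PSMD13, a subunit of the lid, stood at 27.8, 27.6 and 36.4 FPKM in Osi_cIGF1R, 41.7, 42.2 and 40.0 FPKM in Osi_Lin_EV, and 62.6, 66.1 and 61.8 FPKM in DMSO_EV. Its groups did not overlap, and its log2 fold change of -0.43 ± 0.11 (SE) in Osi_cIGF1R against Osi_Lin_EV was the largest of the class there (limma adjusted p = 0.00362). The scaffold genes PSMD2 and PSMD1 fell by 0.96 and 0.70 in Osi_cIGF1R and by 0.79 and 0.56 in Osi_Lin_EV against DMSO_EV. Of the other lid genes, PSMD11 and PSMD12 had the larger fall in Osi_Lin_EV (0.79 each, against 0.64 and 0.72 in Osi_cIGF1R), while PSMD3 and PSMD6 had the larger fall in Osi_cIGF1R (0.78 each, against 0.38 and 0.46). In Osi_cIGF1R against Osi_Lin_EV, PSMD11 and PSMD12 did not pass the test as deposited, with log2 fold changes of 0.15 and 0.07, and PSMD3 and PSMD6 fell by 0.40 and 0.31. The PSMD6 call ended without Osi_Lin_EV replicate 1 or Osi_cIGF1R replicate 1 or 2 (limma adjusted p = 0.0773, 0.0883 and 0.0757).

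PSMD4, a ubiquitin receptor, and PSMD8, a lid subunit, were the genes of the class that did not pass in Osi_Lin_EV against DMSO_EV. PSMD4 averaged 65.0 ± 12.03, 85.7 ± 2.85 and 85.0 ± 2.77 FPKM in Osi_cIGF1R, Osi_Lin_EV and DMSO_EV, and PSMD8 57.9 ± 5.18, 70.3 ± 5.57 and 78.3 ± 5.97 FPKM (SD, n = 3 each). Every Osi_cIGF1R library of PSMD4 lay under every other library. Against Osi_Lin_EV, PSMD4 fell by 0.41 and PSMD8 by 0.28. The PSMD8 call ended without Osi_Lin_EV replicate 1 or 2 or Osi_cIGF1R replicate 1 or 2 (limma adjusted p = 0.112, 0.123, 0.102 and 0.122). Without Osi_cIGF1R replicate 3, PSMA3, PSMB2, PSMB6, PSMC2 and PSMD14 passed as lower in Osi_cIGF1R than in Osi_Lin_EV (adjusted p = 0.00196 to 0.0348).

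The chaperones that build the particles did not follow 1 direction. The 20S chaperones PSMG1 and PSMG2, which work as a pair, and PSMG3 and PSMG4, which form another, bind the alpha subunits during assembly. PSMG1 stood at 1.89, 1.97 and 3.35 FPKM in Osi_cIGF1R, 4.03, 3.89 and 4.13 FPKM in Osi_Lin_EV, and 5.59, 6.57 and 6.74 FPKM in DMSO_EV. PSMG3 stood at 11.85, 10.95 and 13.81 FPKM in Osi_cIGF1R, 18.6, 22.4 and 20.9 FPKM in Osi_Lin_EV, and 33.0, 28.7 and 27.4 FPKM in DMSO_EV. Neither gene had overlapping groups. PSMG3 fell by 1.22 ± 0.11 (SE) on the log2 scale in Osi_cIGF1R against DMSO_EV (limma adjusted p = 3.55e-07) and by 0.71 ± 0.11 against Osi_Lin_EV. PSMG1 had the largest fall of the 4 in Osi_Lin_EV against DMSO_EV (0.54 ± 0.14, adjusted p = 0.00590) and fell by 1.13 in Osi_cIGF1R against DMSO_EV. PSMG4 fell by 1.03 in Osi_cIGF1R against DMSO_EV.

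PSMG2, the partner of PSMG1, averaged 19.9 ± 3.46, 17.4 ± 0.542 and 21.5 ± 2.01 FPKM in Osi_cIGF1R, Osi_Lin_EV and DMSO_EV (SD, n = 3 each) and did not pass in Osi_cIGF1R against DMSO_EV (log2 fold change -0.12, limma adjusted p = 0.378), except without Osi_cIGF1R replicate 3 (-0.25, adjusted p = 0.0324). Its call in Osi_Lin_EV against DMSO_EV (-0.29, adjusted p = 0.0490) ended without DMSO_EV replicate 1 or 3, without any 1 of the Osi_Lin_EV libraries or without Osi_cIGF1R replicate 2 (adjusted p = 0.0569 to 0.135). In the same comparison PSMG4 did not pass (-0.41, adjusted p = 0.0640), except without DMSO_EV replicate 3 (adjusted p = 0.0224) or Osi_cIGF1R replicate 3 (adjusted p = 0.0138), and under median-of-ratios, a minimum of 5 FPKM, a pseudocount of 5 or a fit of the compared groups only.

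The base of the 19S is assembled with PSMD5, PSMD9 and PSMD10, none of which passed in Osi_Lin_EV against DMSO_EV. PSMD5 stood at 13.8, 13.4 and 12.5 FPKM in Osi_cIGF1R, 11.3, 10.8 and 10.2 FPKM in Osi_Lin_EV, and 9.40, 10.1 and 11.4 FPKM in DMSO_EV. PSMD9 stood at 6.62, 7.22 and 8.27 FPKM in Osi_cIGF1R, 11.6, 10.7 and 9.91 FPKM in Osi_Lin_EV, and 10.0, 12.2 and 11.1 FPKM in DMSO_EV. Osi_cIGF1R thus stood apart from the other groups upward in PSMD5 and downward in PSMD9. PSMD5 rose by 0.34 ± 0.09 (SE) on the log2 scale against DMSO_EV (limma adjusted p = 0.00592), and PSMD9 fell by 0.53 ± 0.11 (adjusted p = 0.000516). Against Osi_Lin_EV the log2 fold changes were 0.27 (adjusted p = 0.0214) and -0.49 (adjusted p = 0.00129), and the PSMD5 call ended without Osi_Lin_EV replicate 2 or 3 or Osi_cIGF1R replicate 1 or 2 (adjusted p = 0.0601, 0.0835, 0.0769 and 0.0649). PSMD10, also known as the oncoprotein gankyrin, averaged 26.4 ± 4.25, 23.9 ± 0.812 and 27.4 ± 3.15 FPKM in Osi_cIGF1R, Osi_Lin_EV and DMSO_EV (SD, n = 3 each) and did not pass in any comparison, except in Osi_cIGF1R against Osi_Lin_EV at equal totals.

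Of the regulators outside the 19S, PSMF1 encodes PI31, a protein that inhibits the 20S core in the test tube. It stood at 17.6, 16.7 and 16.1 FPKM in Osi_cIGF1R, 11.1, 11.4 and 9.85 FPKM in Osi_Lin_EV, and 10.7, 13.2 and 13.4 FPKM in DMSO_EV. Every Osi_cIGF1R library lay over every other, and the other groups overlapped. PSMF1 rose by 0.41 ± 0.10 (SE) on the log2 scale in Osi_cIGF1R against DMSO_EV (limma adjusted p = 0.00283) and by 0.59 ± 0.10 against Osi_Lin_EV (adjusted p = 0.000245). In Osi_Lin_EV against DMSO_EV it did not pass (-0.18, adjusted p = 0.148), except without DMSO_EV replicate 1 (-0.28, adjusted p = 0.0246) and under median-of-ratios (-0.26, adjusted p = 0.0444). PSME3, an activator of the core in the nucleus, stood at 18.2, 20.2 and 19.2 FPKM in Osi_cIGF1R, 18.8, 17.2 and 17.1 FPKM in Osi_Lin_EV, and 22.2, 24.6 and 28.1 FPKM in DMSO_EV. DMSO_EV was highest without overlap, with log2 fold changes of -0.36 ± 0.10 in Osi_cIGF1R and -0.47 ± 0.10 in Osi_Lin_EV against it (limma adjusted p = 0.00549 and 0.00139). PSME4, another activator, fell by 0.36 in Osi_Lin_EV against DMSO_EV and had a log2 fold change of -0.10 in Osi_cIGF1R, which did not pass. Its rise of 0.26 in Osi_cIGF1R against Osi_Lin_EV lost its call without any 1 library of those groups but Osi_cIGF1R replicate 3, and without DMSO_EV replicate 2 (adjusted p = 0.0537 to 0.143).

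Levels within the complex were uneven although its subunits assemble in equal numbers. Per length, the highest and lowest alpha genes differed 7.27 times in Osi_cIGF1R, 7.20 times in Osi_Lin_EV and 7.66 times in DMSO_EV. PSMA7 was the highest in Osi_Lin_EV and DMSO_EV, whereas PSMA6 was the highest in Osi_cIGF1R. In the beta ring PSMB4 was the highest and PSMB2 the lowest in each group, with ratios of 6.61, 8.29 and 5.85 in the same order, and among the ATPases PSMC3 and PSMC1 were the highest and lowest in each group, with ratios of 8.06, 10.7 and 11.6. PSMD12 was the lowest non-ATPase subunit in each group, at 5.08 ± 0.377, 4.796 ± 0.139 and 9.06 ± 1.48 FPKM in Osi_cIGF1R, Osi_Lin_EV and DMSO_EV (SD, n = 3 each). Of 30 pseudogene rows of these genes, 26 stayed under 1 FPKM in every library.

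Of 12 partners of the particle whose symbols lie outside the PSM series, 9 fell and 0 rose in Osi_cIGF1R against DMSO_EV, 6 fell and 1 rose in Osi_Lin_EV against DMSO_EV, and 4 fell and 0 rose in Osi_cIGF1R against Osi_Lin_EV. Of all genes tested, 35.8%, 23.5% and 34.8% fell and 33.1%, 29.0% and 25.9% rose in the same comparisons. The share of falls in the last thus lay near that of all genes. Medians of the list were -0.42, -0.22 and -0.13 in that order, against -0.03, 0.05 and -0.09 over all genes. At equal totals the last turned to 0.13, against 0.14 over all genes, with 2 falls and 5 rises. Of the 9 falls in Osi_cIGF1R against DMSO_EV, 2 stayed called at equal totals, SEM1 and UCHL5. The median of the list was -0.10 there, against 0.25 over all genes. SEM1, a small lid subunit, averaged 194.3, 350.5 and 390.9 FPKM in Osi_cIGF1R, Osi_Lin_EV and DMSO_EV and fell by 1.02 on the log2 scale in Osi_cIGF1R against DMSO_EV. The deubiquitinases UCHL5 and USP14 fell by 0.70 and 0.53, POMP, which matures the core, by 0.50, the ubiquitin receptor ADRM1 by 0.48 and the ubiquitin ligase UBE3C by 0.42. In Osi_Lin_EV against DMSO_EV, UCHL5 fell by 0.90, POMP by 0.71, USP14 by 0.66 AKIRIN2, which brings proteasomes into the nucleus, by 0.56, UBE3C by 0.32 and PITHD1 by 0.30, while ADRM1 and SEM1 did not pass (-0.03 and -0.15). ZFAND5, which stimulates degradation by the proteasome, was the 1 partner that rose there (0.23), and it fell by 0.32 in Osi_cIGF1R against DMSO_EV. Its rise lost its call under median-of-ratios (0.15, limma adjusted p = 0.173) and its fall at equal totals (0.0019, adjusted p = 0.987). PAAF1 was called in Osi_cIGF1R against Osi_Lin_EV alone, where it fell by 0.41 (adjusted p = 0.0137), and lost its call under median-of-ratios and at equal totals (adjusted p = 0.0548 and 0.248). At equal totals the calls of UBE3C and PITHD1 ended too (adjusted p = 0.104 to 0.533).

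The genes of the NFE2L1 pathway were not lower as a list. Of 9, 5 rose and 2 fell in Osi_cIGF1R against DMSO_EV (median log2 fold change 0.37), 3 rose and 3 fell in Osi_Lin_EV against DMSO_EV (median 0.10), and 5 rose and 0 fell in Osi_cIGF1R against Osi_Lin_EV (median 0.37). Of all genes tested, 33.1%, 29.0% and 25.9% rose and 35.8%, 23.5% and 34.8% fell in the same comparisons, with medians of -0.03, 0.05 and -0.09. The counts in Osi_Lin_EV against DMSO_EV lay near those shares. At equal totals 7 rose and 1 fell in Osi_cIGF1R against DMSO_EV (median 0.62, against 0.25 over all genes), with MAFG and MAFK added. There 6 rose against Osi_Lin_EV (median 0.61, against 0.14 over all genes), with VCP added. Of all 13781 genes tested at equal totals, 6524 and 5188 rose in these 2 comparisons. NFE2L1 averaged 54.9, 32.0 and 23.9 FPKM in Osi_cIGF1R, Osi_Lin_EV and DMSO_EV, and its relative NFE2L2 averaged 40.6, 24.0 and 18.6 FPKM. NFE2L1 rose by 1.17 and NFE2L2 by 1.11 on the log2 scale in Osi_cIGF1R against DMSO_EV, and by 0.41 and 0.37 in Osi_Lin_EV against DMSO_EV. DDI2, the protease that cuts NFE2L1 into its active form, rose by 0.60 in Osi_cIGF1R against DMSO_EV, and NGLY1, which removes its sugars, by 0.37. VCP, which pulls NFE2L1 out of the membrane, fell by 0.34 in Osi_cIGF1R and by 0.45 in Osi_Lin_EV, and the first of these calls ended at equal totals (-0.0106, limma adjusted p = 0.939). The NFE2L2 rise in Osi_Lin_EV lost its call under median-of-ratios (0.28, adjusted p = 0.0606). MAFF, a small partner factor, fell by 0.76 and 1.65, and NFE2L3 rose by 0.37 in Osi_cIGF1R and fell by 0.73 in Osi_Lin_EV. The activity of these factors was not measured.

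Among 9 genes of ubiquitin, its activation and the shuttles that bring substrates to the proteasome, 2 rose and 2 fell in Osi_cIGF1R against DMSO_EV, 0 rose and 3 fell in Osi_Lin_EV against DMSO_EV, and 4 rose and 2 fell in Osi_cIGF1R against Osi_Lin_EV. Of all genes tested, 33.1%, 29.0% and 25.9% rose and 35.8%, 23.5% and 34.8% fell in the same comparisons, so both counts in the first lay under the background. At equal totals the counts were 5 and 2, 0 and 1, and 5 and 2, with RAD23B an added rise in the first. Of all 13781 genes tested there, 6524, 4135 and 5188 rose and 3214, 2698 and 2751 fell. RPS27A, which encodes ubiquitin fused to a ribosomal protein, averaged 212.9, 385.4 and 502.9 FPKM in Osi_cIGF1R, Osi_Lin_EV and DMSO_EV and fell by 1.26 on the log2 scale in Osi_cIGF1R against DMSO_EV. UBA6, an enzyme that activates ubiquitin, rose by 0.59 against DMSO_EV and by 0.66 against Osi_Lin_EV. Of the ubiquilin shuttles, in Osi_cIGF1R against DMSO_EV, UBQLN2 rose by 0.96, UBQLN4 fell by 1.03 and UBQLN1 did not pass (0.09), except at equal totals, where it rose (0.42, limma adjusted p = 0.0187). The shuttle RAD23B did not pass there as deposited (0.19). In Osi_cIGF1R against Osi_Lin_EV, RAD23B rose by 0.49 and UBQLN1 by 0.43, and both fell in Osi_Lin_EV against DMSO_EV, by 0.29 and 0.34, calls that ended at equal totals (adjusted p = 0.18 and 0.121).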

How the data were processed

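RNA-seq values of 9 H1975 libraries, deposited by the authors as 1 table, were grouped by the labels. The table names no unit. Fractional values and column totals that differ point to FPKM, which the authors deposited per gene symbol, and read depth is unknown, which leaves no counting interval. The submitters' processing notes name STAR, edgeR, Bowtie2 2.1.0 and the build hg38, without their roles. Per the labels' protocols, 1 extraction protocol covers all samples and names RNase R, an enzyme against linear RNA, and 3 days of treatment, against 8 days for these libraries. Whether they had RNase R is not settled by the labels. Because FPKM is a share of a library, abundant transcripts that change shift all others.

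Values were tested as log2(FPKM + 1), which understates the change of low genes, with limma 3.58.1 in R 4.3.3 (group means, trended and robust empirical Bayes), over the 13775 genes with at least 1 FPKM in at least 3 libraries, with Benjamini-Hochberg adjustment over all of them at 0.05. The step was tested on simulated data. Count tests were not run, since these are not counts. Gene positions and promoters are RefSeq's (GRCh38.p14), and all 42 symbols matched a gene. Values in every library are given for the called gene with the largest change per class and comparison, for called genes against the direction of their class, for the 3 catalytic subunits and for genes below the filter, and up to 6 called genes of each other list are named per comparison, by size of change. Genes given by means are shown beside that rule, chosen after their values were seen. The members and lists were chosen with earlier results of these data known. Some genes of the ubiquitin list are not reported here. Columns of samples outside the labels numbered 0. Alternatives were no trend, median-of-ratios, equal totals with and without mitochondrial genes, quantile normalization, pseudocounts of 0.1 and 5, no filter on low genes, a minimum of 5 FPKM, a replicate block, a fit of the compared groups only, and leaving out each library. Figures were drawn in matplotlib 3.10.9 (Python 3.11.15).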

Additional observations from a re-analysis of the deposited data

How the results depend on the processing

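Of 1353 values recomputed under alternatives other than leaving out a library, 1257 kept their direction and their side of the threshold, 47 lost a call, 27 gained one and 22 changed sign, none of the latter called as deposited. Leaving out each library gave 27 to 34 falls and 0 rises among the proteasome genes in Osi_Lin_EV against DMSO_EV, 32 to 33 falls and 3 to 4 rises in Osi_cIGF1R against DMSO_EV, and 14 to 23 falls and 5 to 7 rises in Osi_cIGF1R against Osi_Lin_EV. In the last comparison, falls numbered 11 under median-of-ratios, and equal totals gave 12 rises and 6 falls. Over all genes, falls numbered 3214 in Osi_cIGF1R against DMSO_EV and 2751 in Osi_cIGF1R against Osi_Lin_EV at equal totals, and 3238 and 3148 with the filter at 5 FPKM, which tests fewer genes. Causes were not tested.

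The log2 fold changes that turned in sign were, under median-of-ratios, PSMD4 (-0.0765) and PSMD5 (-0.0201) in Osi_Lin_EV against DMSO_EV, and PSMB7 (0.0514), PSMC1 (0.11), PSMC2 (0.0082) and PSMC6 (0.0047) in Osi_cIGF1R against Osi_Lin_EV. At equal totals they were PSMD9 (0.0136) in Osi_Lin_EV against DMSO_EV, PSMA5 (0.24), PSMD10 (0.27), PSME4 (0.20) and PSMG2 (0.21) in Osi_cIGF1R against DMSO_EV, and PSMA3 (0.0886), PSMB2 (0.0093), PSMB6 (0.0651), PSMB7 (0.19), PSMC1 (0.23), PSMC2 (0.14), PSMC6 (0.14), PSMD1 (0.13), PSMD2 (0.10) and PSMD14 (0.0832) in Osi_cIGF1R against Osi_Lin_EV. Under quantile normalization it was PSMD7 (-0.0174) in Osi_cIGF1R against Osi_Lin_EV. Leaving out a library turned PSMC1 (-0.1141 to 0.0406), PSMD7 (-0.0733 to 0.0667) and PSMD10 (-0.0011 to 0.19) in Osi_cIGF1R against Osi_Lin_EV, PSMD10 in Osi_cIGF1R against DMSO_EV (-0.1838 to 0.0303), and PSMD4 (-0.016 to 0.038) and PSMD9 (-0.1057 to 0.0236) in Osi_Lin_EV against DMSO_EV.

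Deviations from the group means correlated across genes at -0.315 to 0.0358 in same-numbered libraries and at -0.155 to 0.329 in differently numbered ones. Replicate numbers thus gave no sign of pairing. With 3 libraries per group, these correlations cannot settle whether numbers mark a shared culture or batch. With the replicate block, 30 genes fell and 0 rose in Osi_Lin_EV against DMSO_EV, 32 and 4 in Osi_cIGF1R against DMSO_EV, and 17 and 6 in Osi_cIGF1R against Osi_Lin_EV.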
